A study of Mus musculus with 21 samples.

Results

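The 6 mRNAs described here are the protein-coding transcripts that the mouse mitochondrial genome supplies to respiratory complexes III, IV and V, namely mt-Co1, mt-Co2 and mt-Co3 of cytochrome c oxidase, mt-Atp6 and mt-Atp8 of ATP synthase, and mt-Cytb of the cytochrome bc1 complex. They were picked by gene name from the 16318 genes of the deposited count table, at a time when earlier results of these data were known, and all 6 passed the filter on low counts. In brains of mice given the peptide HsTX1[R14A], all 6 were lower than in brains of mice given saline, by log2 fold changes from -1.07 (mt-Atp6) to -0.69 (mt-Cytb), and each passed an FDR of 0.05. This has to be read against a wide difference over the whole table, since 31.6% of all tested genes were called in either direction and 16.1% were called lower.

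RNA was sequenced from the whole brain of 21 SAMP8 mice, an inbred line with accelerated ageing that arose naturally and is used as a model of cognitive decline, with 1 library for each mouse. HsTX1[R14A] (spelled HxTX1[R14A] in the sample labels), an engineered scorpion-toxin peptide that blocks the voltage-gated potassium channel Kv1.3, was given under the skin at 1 mg/kg on alternate days for 8 weeks to 9 mice (3 females and 6 males), and the phosphate-buffered saline (PBS) vehicle was given to 12 mice (6 females and 6 males). Dosing ended at 6 months of age. The mice had gone through behavioural tests, and the brain was frozen after perfusion through the heart with PBS. No mouse of another strain was in the comparison, so every group shares the SAMP8 background.

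Oxidative phosphorylation is carried out by 5 protein complexes in the inner mitochondrial membrane. Complex III passes electrons from ubiquinol to cytochrome c, complex IV passes them on to oxygen, and both pump protons whose return flow drives ATP production by complex V. Most subunits are encoded in the nucleus and imported, while the mitochondrial genome itself encodes a few membrane-embedded core subunits, its own ribosomal RNAs and its transfer RNAs. Its genes are transcribed as long precursors from both strands. Most of the mRNAs are released by cutting out the transfer RNAs between them, and most are then polyadenylated. Neurons depend strongly on this pathway, and mitochondrial transcripts are among the most abundant RNAs of the brain.

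All 6 genes lie on the plus strand of the mitochondrial chromosome (GRCm38, GENCODE M21), each as a single exon, in the order mt-Co1 (chrM:5328-6872, 1545 bases), mt-Co2 (chrM:7013-7696, 684 bases), mt-Atp8 (chrM:7766-7969, 204 bases), mt-Atp6 (chrM:7927-8607, 681 bases), mt-Co3 (chrM:8607-9390, 784 bases) and, after 5 complex I genes, mt-Cytb (chrM:14145-15288, 1144 bases). The reading frames of mt-Atp8 and mt-Atp6 share 43 bases, and mt-Atp6 and mt-Co3 share 1 base, so a read over these bases belongs to both genes of a pair. The sequences below show these junctions, with the shared bases in capitals.
mt-Atp8: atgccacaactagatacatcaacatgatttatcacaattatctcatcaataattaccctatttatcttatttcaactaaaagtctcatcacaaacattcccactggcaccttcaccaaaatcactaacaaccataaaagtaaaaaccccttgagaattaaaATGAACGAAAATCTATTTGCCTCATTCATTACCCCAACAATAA
mt-Atp6 start: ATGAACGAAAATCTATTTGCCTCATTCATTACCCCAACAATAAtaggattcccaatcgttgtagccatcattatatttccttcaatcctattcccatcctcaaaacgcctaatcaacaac
mt-Atp6 to mt-Co3 junction: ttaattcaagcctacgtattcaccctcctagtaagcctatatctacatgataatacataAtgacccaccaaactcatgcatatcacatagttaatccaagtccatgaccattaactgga

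The annotated genes also differ in how they end. The last 30 bases of each are shown with the stop codon in capitals: mt-Co1, mt-Co2, mt-Atp6 and mt-Atp8 end with a full TAA, whereas mt-Co3 and mt-Cytb end with a lone T, 1 base beyond the last full codon, a kind of stop that polyadenylation is known to complete in animal mitochondria.
mt-Co1 3′ end: gaggaaccaacctatgtaaaagtaaaaTAA
mt-Co2 3′ end: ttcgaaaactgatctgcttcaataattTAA
mt-Atp8 3′ end: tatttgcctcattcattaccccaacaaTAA
mt-Atp6 3′ end: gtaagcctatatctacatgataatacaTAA
mt-Co3 3′ end: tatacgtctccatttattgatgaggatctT
mt-Cytb 3′ end: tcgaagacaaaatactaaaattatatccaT

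A stretch of mitochondrial DNA has been copied into chromosome 1 of the mouse nuclear genome, and several annotated pseudogenes in it match the 6 mRNAs closely enough to compete for their reads. Gm28661 (chr1:24614885-24615565, minus strand) is identical to mt-Co2 over 681 bases, Gm10925 (chr1:24613974-24614651) is identical to mt-Atp6 over 678 bases, and Gm28437 (chr1:24613189-24613971) is identical to mt-Co3 over 783 bases. Gm29216 (chr1:24615706-24616197) matches the last 492 bases of mt-Co1 with 6 mismatches, an identity of 98.8%. For mt-Cytb no such copy was found among the genes of the deposited table, the only place searched. There, mt-Atp8 shared only its overlap with mt-Atp6 (7.47% of its 31-base words) with a nuclear row. The first 60 bases of the mt-Co2 pair and the 90 bases of the mt-Co1 pair that hold all 6 mismatches, in capitals, are given to show what a read would have to tell apart.
mt-Co2: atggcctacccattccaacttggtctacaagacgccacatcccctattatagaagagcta
Gm28661: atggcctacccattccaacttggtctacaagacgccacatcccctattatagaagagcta
mt-Co1: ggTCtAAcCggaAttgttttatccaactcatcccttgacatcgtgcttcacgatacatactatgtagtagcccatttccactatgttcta
Gm29216: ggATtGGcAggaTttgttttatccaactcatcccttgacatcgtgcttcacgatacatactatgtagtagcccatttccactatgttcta

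Library totals ran from 14917174 to 47613792 counts, and the labelled sex matched the sex-linked genes in 21 of 21 libraries. The lowest value of any of the 6 mRNAs in any mouse was 449 CPM (read counts divided by the TMM-adjusted library total), so the spread between mice and not the sampling of reads set the precision of the values below. Because the tissue was whole brain, fewer cells or mitochondria of a kind and less RNA in each cannot be told apart in any of the comparisons. The study's supplementary gene table writes 15 library names with SAMP8 (10 PBS and 5 HsTX1[R14A] mice) and 6 with SAMP (2 and 4), and what this difference in naming records is not given in the sources used here.

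Levels of the 6 mRNAs as deposited spanned a wide range in PBS-treated brains. Per kilobase of gene length, mt-Co1 was highest with 29636 ± 9629 CPM per kb (SD, n = 12), followed by mt-Cytb with 13810 ± 4030, mt-Co3 with 11739 ± 4941, mt-Atp6 with 8465 ± 3552, mt-Atp8 with 7892 ± 4021 and mt-Co2 with 4601 ± 1824. Apart from the step from mt-Co1 to mt-Cytb, the means of neighbours in this order lay closer together than the larger of their SDs. The order was not kept once the counts of the chromosome 1 copies (and, for mt-Co1, of a chromosome 2 copy, Gm13340) were added back. Then mt-Co3 (33609 ± 12210), mt-Co1 (32466 ± 10921), mt-Co2 (29435 ± 7657) and mt-Atp6 (26441 ± 8044) lay within 1 SD of each other, and mt-Cytb (13810 ± 4031) and mt-Atp8 (7893 ± 4022) lay below them. The annotated mt-Atp8 has only 204 bases, 43 of them shared with mt-Atp6. How far this affects its value per kb beside the longer genes was not tested.

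Together the 6 mRNAs made up 7.79% ± 2.13 (SD, n = 12) of all counts in PBS-treated brains, with a lowest share of 4.78% in mouse 102 and a highest share of 11.2% in mouse 90. In HsTX1[R14A]-treated brains the share was 4.82% ± 1.00 (SD, n = 9), from 3.60% in mouse 98 to 7.01% in mouse 93. With the nuclear copies added the shares were 12.7% ± 3.26 and 8.08% ± 1.79. The 15 mitochondrially encoded genes of the table, ribosomal RNAs included, took 14.7% ± 3.69 and 9.54% ± 1.91 of the counts.

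**Figure D1:**
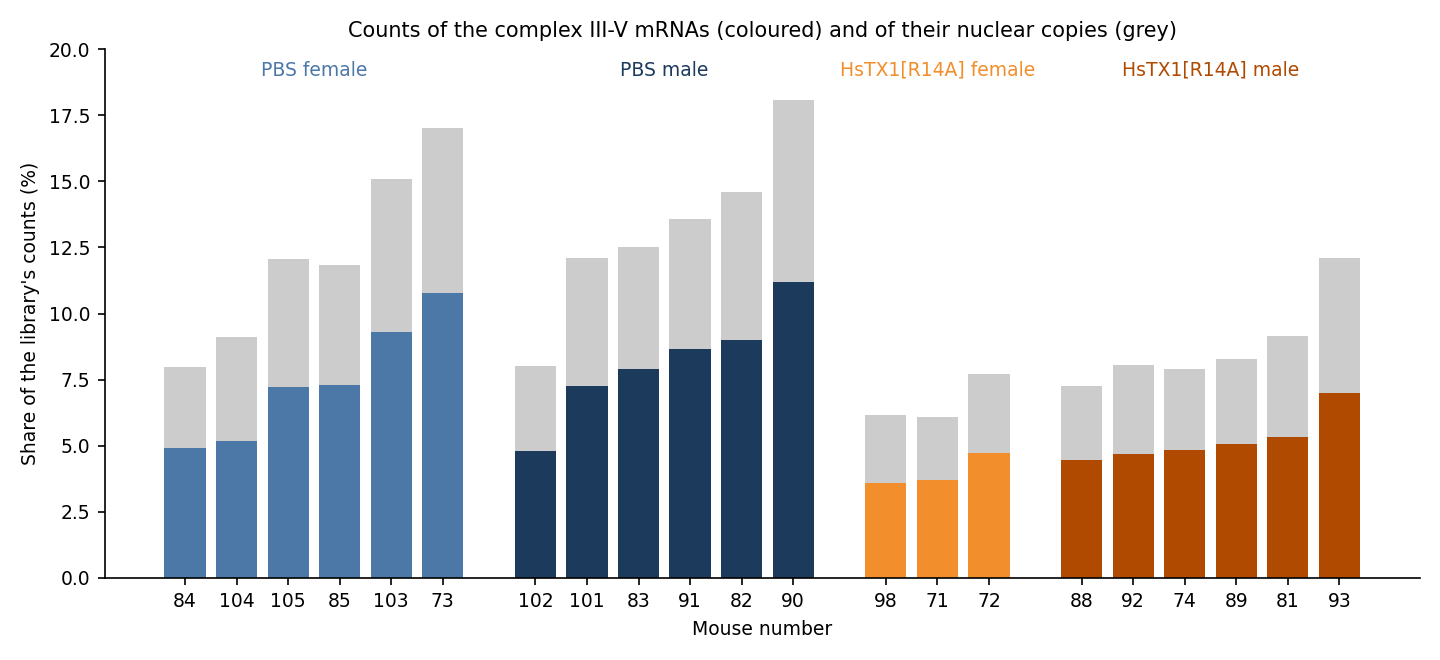
Share of each library's counts, in percent, assigned to the 6 complex III-V mRNAs (coloured) and to their nuclear copies (grey), by mouse number, with bars ordered within each group by the coloured part. The coloured part ran from 4.78% to 11.2% in the 12 PBS mice and from 3.60% to 7.01% in the 9 HsTX1[R14A] mice, so the treatments overlap.

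mt-Co1 encodes the catalytic core subunit of complex IV, which holds the haem and copper centre where oxygen is reduced. Its level in the PBS group was 24787 CPM in the lowest mouse (102), 44916 at the median and 74201 in the highest (90). In the HsTX1[R14A] group it was 19014 CPM in the lowest mouse (98), 26182 at the median and 39180 in the highest (93). All 9 HsTX1[R14A] mice lay below the PBS median, and 3 of them lay below the lowest PBS mouse. The log2 fold change was -0.85 (SE 0.18, adjusted p = 0.0151, edgeR's quasi-likelihood test with sex in the model and Benjamini-Hochberg adjustment over 16303 genes).

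mt-Co2 encodes the subunit that takes electrons from cytochrome c through its own copper centre. Its deposited level ran from 1583 CPM (mouse 104) over a median of 2928 to 5536 (mouse 73) in PBS-treated brains. In HsTX1[R14A]-treated brains it ran from 1024 CPM (mouse 71) over a median of 1664 to 2353 (mouse 93). Of the 12 PBS mice, 8 lay above every HsTX1[R14A] mouse. The log2 fold change was -1.04 (SE 0.21, adjusted p = 0.0151, edgeR).

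mt-Co3 encodes the third core subunit of complex IV, which carries no metal centre. It ranged from 4371 CPM (mouse 84) to 15675 (mouse 90) around a median of 8032 in the PBS group. In the HsTX1[R14A] group the range was 3240 CPM (mouse 71) to 7850 (mouse 89) around a median of 4605. The SD was 42.1% of the mean in PBS mice and 35.2% in HsTX1[R14A] mice, so mt-Co3 varied more between mice than mt-Co1 (32.5% and 23.4%). It fell by 0.97 on the log2 scale (SE 0.23, adjusted p = 0.0163, edgeR).

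mt-Atp6 encodes the proton-channel subunit a of complex V. In PBS-treated brains its level was 2888 CPM in the lowest mouse (104), 5218 at the median and 9760 in the highest (90). In HsTX1[R14A]-treated brains it was 1631 CPM in the lowest mouse (71), 2645 at the median and 4206 in the highest (93). Of the 9 HsTX1[R14A] mice, 5 lay below the lowest PBS mouse, more than for any other of the 6 mRNAs as deposited. With the nuclear copies added it was 4, as many as for mt-Co3 and mt-Atp8. The log2 fold change of -1.07 (SE 0.24, adjusted p = 0.0151, edgeR) was the most negative of the 6.

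mt-Atp8 encodes a short membrane subunit of complex V and is read from the same RNA as mt-Atp6. Its level ran from 742 CPM (mouse 84) over a median of 1375 to 3570 (mouse 73) in the PBS group and from 449 CPM (mouse 71) over a median of 837 to 1385 (mouse 93) in the HsTX1[R14A] group. The treatments overlapped, with 7 of 9 HsTX1[R14A] mice below the PBS median. The log2 fold change was -0.91 (SE 0.28, adjusted p = 0.0244, edgeR). This call was lost when PBS mouse 90 (adjusted p = 0.0607), HsTX1[R14A] mouse 98 (0.0515) or HsTX1[R14A] mouse 71 (0.0532) was left out, whereas the other 5 mRNAs kept theirs in all 21 such fits.

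mt-Cytb encodes cytochrome b, the only mitochondrially encoded subunit of complex III, which holds both of its haem b groups. It lay between 8428 CPM (mouse 102) and 23128 (mouse 90) with a median of 16135 in PBS-treated brains. In HsTX1[R14A]-treated brains it lay between 7647 CPM (mouse 71) and 14474 (mouse 93) with a median of 9342. All 9 HsTX1[R14A] mice were below the PBS median. The log2 fold change of -0.69 (SE 0.18, adjusted p = 0.0171, edgeR) was the smallest of the 6.

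**Figure D2:**
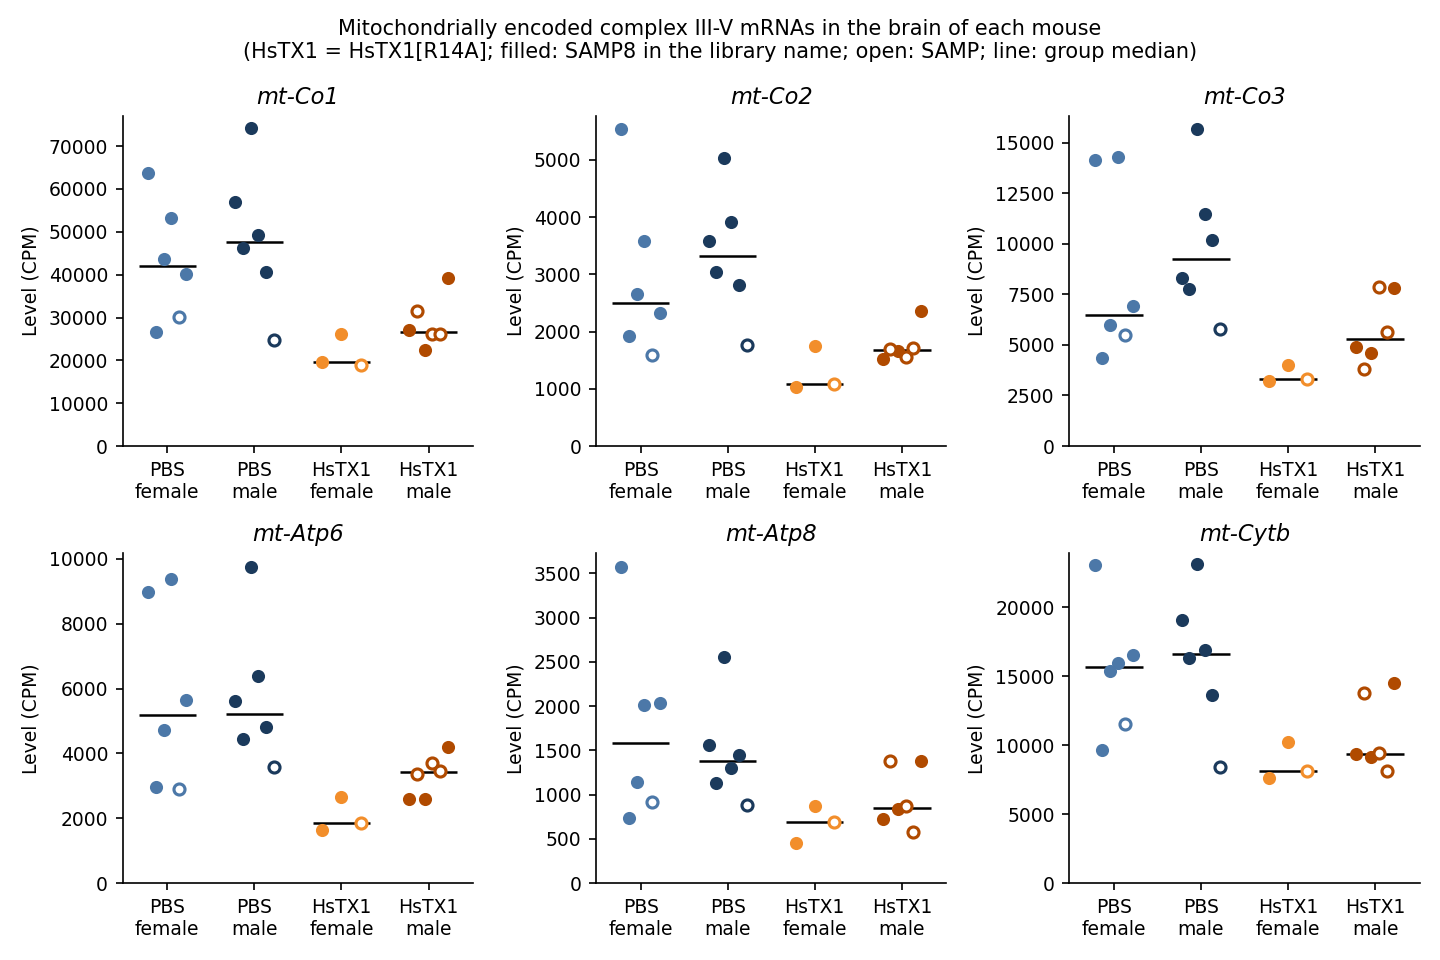
Level of each of the 6 mRNAs in CPM (linear axis from 0) in each mouse, by treatment and sex, with a line at the group median, filled points for library names with SAMP8 and open points for SAMP. HsTX1[R14A] mouse 93 is the highest or level with the highest of its group in each panel, and each of the 2 open PBS points is the lowest or next to the lowest of its group.

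For none of the 6 mRNAs were the treatments separate over all mice, which was so for 0.0123% of all genes in the lower direction. Among females alone, 3 of the 6 as deposited did not overlap, against 7.44% of all genes. With the nuclear copies added, mt-Co2 and mt-Co3 did not overlap among females, while mt-Co1 and mt-Atp6 did. The values that follow are those of the deposited rows. HsTX1[R14A] females had mt-Co1 at 19014, 19656 and 26182 CPM, and the lowest of the 6 PBS females had 26582. For mt-Co3 the 3 treated females had 3240, 3336 and 3997 CPM and the lowest PBS female 4371. For mt-Atp6 they had 1631, 1842 and 2645 CPM and the lowest PBS female 2888. Among males the treatments overlapped for all 6 mRNAs, while 0.65% of all genes were separate and lower. PBS male 102 lay inside the range of the treated males for mt-Co1, with 24787 CPM against 22495 to 39180. For mt-Co2, 5 of the 6 treated males lay below PBS male 102 as deposited, and 1 did with the copies added.

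Fitted separately, the log2 fold changes ran from -1.50 (mt-Atp6, SE 0.43) to -0.83 (mt-Cytb, SE 0.27) in females and from -0.94 (mt-Co2, SE 0.21) to -0.60 (mt-Cytb, SE 0.23) in males. With edgeR neither sex alone gave a called gene, so the background was 0% and none of the 6 was called (adjusted p = 0.244 in females and from 0.138 to 0.164 in males), although all 6 had an unadjusted p under 0.05 in each sex, as had 3312 genes in females and 4440 in males. DESeq2 called 1 of the 6 and 144 genes in females, and 4 of the 6 and 692 genes in males. Without HsTX1[R14A] mouse 93, edgeR called 4 of the 6 in males, along with 1879 genes in the whole table, where it had called 0 with that mouse. Each mRNA had the more negative estimate in females, with a female minus male difference of log2 fold changes from -0.75 (mt-Atp8, SE 0.54) to -0.23 (mt-Cytb, SE 0.36). The treatment by sex interaction called 0 genes in edgeR (270 had an unadjusted p under 0.05), and 0 of the 6 mRNAs had an unadjusted p under 0.05, so a difference between the sexes in the response was not detectable with 3 treated females. Levels also did not differ detectably between the sexes at a given treatment. The female minus male log2 fold changes were -0.41 for mt-Co3 (SE 0.23, adjusted p = 0.448) to -0.06 for mt-Atp8 (SE 0.27, adjusted p = 0.912), against 0.0552% of all genes called for sex.

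How the deposited counts were divided between an mRNA and its nuclear copy changed its apparent level and, for 2 of the 6, the size of its difference. Of the counts of mt-Co2 and Gm28661 together, the Gm28661 row held 84.8% ± 2.64 (SD, n = 12) under PBS and 87.5% ± 1.67 (SD, n = 9) under HsTX1[R14A]. For mt-Atp6 and Gm10925 the copy held 68.7% ± 5.73 and 74.1% ± 3.17. For mt-Co3 and Gm28437 it held 65.6% ± 3.78 and 66.8% ± 5.51, and for mt-Co1 and Gm29216 it held 8.25% ± 2.59 and 7.25% ± 1.86. The log2 ratio of mRNA to copy, which needs no scaling between libraries, was lower in HsTX1[R14A] mice by 0.34 for mt-Co2 (exact permutation of treatment within sex, two-sided, p = 0.00844, adjusted over the 4 ratios 0.0243) and by 0.39 for mt-Atp6 (p = 0.0121, adjusted 0.0243, the same exact test). The ratios of mt-Co3 (difference -0.10, exact p = 0.468) and mt-Co1 (0.21, exact p = 0.309) did not pass.

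With the copies added to the mRNAs, an alternative chosen after the data had been seen, all 6 were again called lower, against 16% of all genes. The log2 fold change became -0.71 for mt-Co2 (SE 0.15, adjusted p = 0.0152, edgeR) and -0.75 for mt-Atp6 (SE 0.18, adjusted p = 0.0163). It was -0.87 for mt-Co1, -0.88 for mt-Co3, -0.91 for mt-Atp8 and -0.69 for mt-Cytb. A chromosome 2 copy, Gm13341, shares 47.1% of the 31-base words of mt-Co2 and was not added. Summed with Gm28661, mt-Co2 stood at 20134 ± 5237 CPM (SD, n = 12) under PBS and at 12677 ± 2605 (SD, n = 9) under HsTX1[R14A]. The order of the 6 by size of the difference therefore rests on how reads of identical sequence were assigned, while the direction was the same either way.

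The 6 mRNAs were also compared with each other inside each mouse, where library scaling cancels. Of the 6 ratios tested, none passed after adjustment. The ratio of mt-Cytb to mt-Co1 was 0.348 on average in PBS mice and 0.380 in HsTX1[R14A] mice, a log2 difference of 0.14 (exact permutation within sex, two-sided, p = 0.0221, adjusted over 6 ratios 0.133). It passed only without HsTX1[R14A] mouse 92 (0.17, adjusted p = 0.0162, exact permutation). The ratio of mt-Co2 to mt-Co1 differed by -0.17 as deposited (exact p = 0.0446, adjusted 0.134) and by 0.14 with the copies added (exact p = 0.0330, adjusted 0.0989), so its sign depended on the assignment. For mt-Atp8 to mt-Atp6, which share an RNA, the difference was 0.14 (exact p = 0.348) as deposited and -0.13 (exact p = 0.299) with the copies.

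Across the 21 mice the 6 mRNAs rose and fell together. Pearson's r between the log2 CPM of each of the 15 pairs ran from 0.79 (mt-Co3 with mt-Cytb) to 0.97 (mt-Co1 with mt-Cytb), with a median of 0.90. It ran from 0.86 to 0.99 with the copies added. The points share libraries and treatments, and among the 12 PBS mice alone the range was 0.77 to 0.97. Among the 9 HsTX1[R14A] mice it was 0.37 to 0.95, and both of these ranges are of deposited rows. With the copies added the range was 0.84 to 0.98 in PBS mice and 0.62 to 0.96 in HsTX1[R14A] mice.

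Of the other 9 mitochondrially encoded RNAs, 8 were called lower in HsTX1[R14A]-treated brains, against 16.1% of all genes. Of the 7 complex I mRNAs 6 were called lower, with a median log2 fold change of -0.58, beside a median of -0.94 over the 6 mRNAs of complexes III to V, a difference that was not tested. Both medians are of deposited rows. With the copies added, the 6 mRNAs of complexes III to V ran from -0.91 (mt-Atp8) to -0.69 (mt-Cytb). Complex I genes have nuclear copies too, such as Gm28438 of mt-Nd3 and Gm10222 of mt-Nd4l, and these were not added. mt-Nd1 fell by 0.58 (SE 0.16, adjusted p = 0.0194, edgeR), mt-Nd2 by 0.63 and mt-Nd4 by 0.47. mt-Nd6, the only mRNA gene on the other strand, was the most negative at -1.65 (SE 0.43, adjusted p = 0.0178), from a level of 140 ± 98.7 CPM (SD, n = 12) to 44.4 ± 34.9 (SD, n = 9). mt-Nd3 had -0.63 and was not called (SE 0.31, adjusted p = 0.116). Its chromosome 1 copy Gm28438 shares 98.1% of its 31-base words and stood at 3086 CPM under PBS, against 540 for mt-Nd3. Gm28438 was called lower (-1.05, SE 0.24, adjusted p = 0.0153, edgeR), and the sum of mt-Nd3 and Gm28438 was not tested. The ribosomal RNAs mt-Rnr1 and mt-Rnr2 both had a log2 fold change of -0.98 and were called (adjusted p = 0.0165 and 0.0156). With 1 mouse left out at a time, the call for mt-Nd5 (-0.43, adjusted p = 0.0497) was lost in 15 of 21 fits, that for mt-Nd4 in 9, for mt-Nd4l in 5 and for mt-Nd2 in 3.

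**Figure D3:**
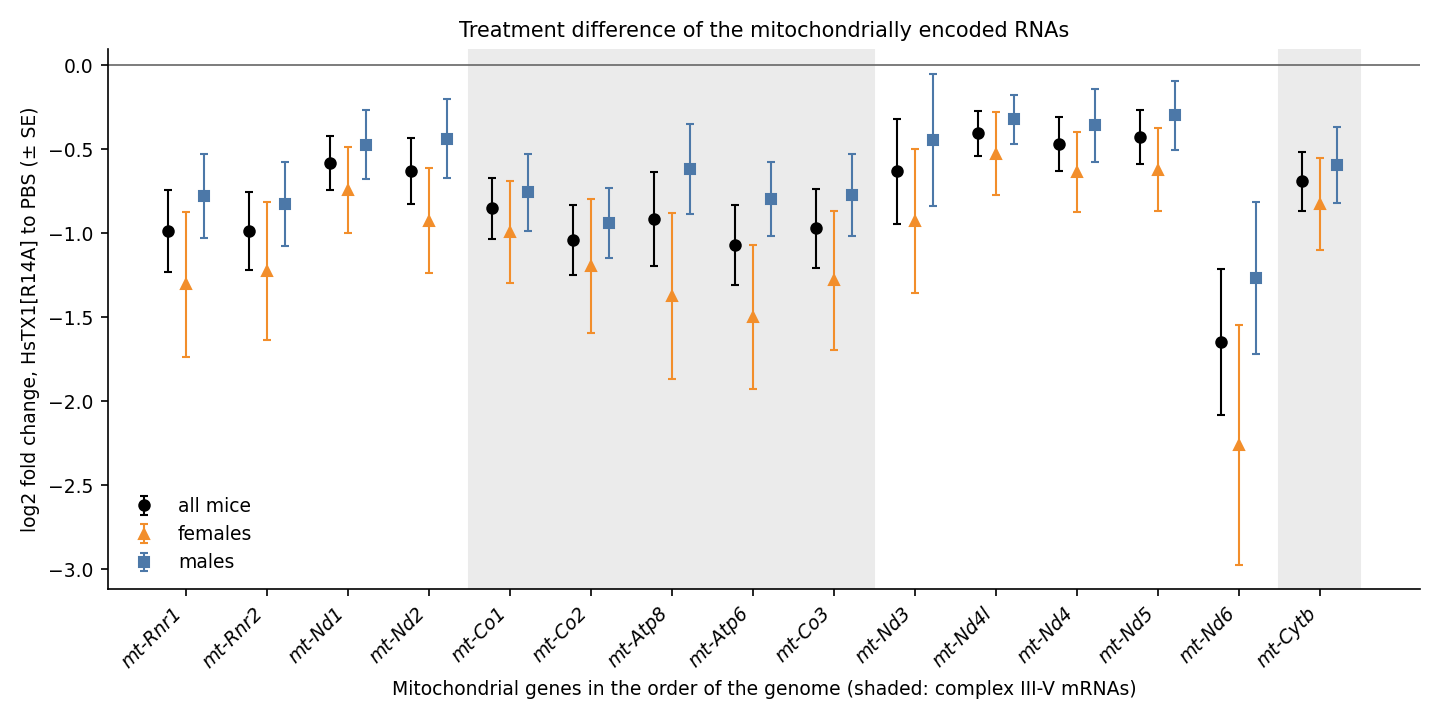
Log2 fold change of HsTX1[R14A] to PBS with its standard error for the 15 mitochondrially encoded genes in genome order, over all mice (black), in females (orange) and in males (blue), with the 6 complex III-V mRNAs shaded. All estimates lie below 0, from -1.07 to -0.69 over all mice for the shaded genes and from -1.65 to -0.40 for the rest.

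The nuclear genes for complexes III to V were counted from fixed lists beside the 6 mRNAs, against the 16.1% of all genes called lower and an all-gene median of -0.01. Of 42 nuclear subunits tested, 24 were called lower and 0 higher, and 41 had a negative log2 fold change, with a median of -0.47. For complex IV, 13 of 17 were called lower, among them Cox6c (-0.77, SE 0.20, adjusted p = 0.0176, edgeR) and Cox7c (-0.75, SE 0.19, adjusted p = 0.0172), small subunits that surround the mitochondrially encoded core. For complex V, 7 of 16 were called lower, among them Atp5f1 of the stator stalk (-0.43, SE 0.11, adjusted p = 0.0172) and Atp5j2 (-0.70, SE 0.20, adjusted p = 0.0208). For complex III, 4 of 9 were called lower, among them Uqcrb (-0.55, SE 0.13, adjusted p = 0.0152) and the hinge protein gene Uqcrh (-0.59, SE 0.18, adjusted p = 0.0245). The nuclear count fell with single mice left out, as did the share of all genes called lower. It was 5 of 42 without PBS mouse 90 (6.32% of all genes lower), 11 without HsTX1[R14A] mouse 98 (9.25%), 13 without HsTX1[R14A] mouse 71 (10.2%) and 14 without HsTX1[R14A] mouse 88 (9.69%), and in these fits 40 or 41 of the 42 log2 fold changes were negative.

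Assembly factors of the same complexes were called lower in 10 of 29 cases and higher in 0, beside 16.1% of all genes called lower and 15.5% higher. Among them were Cox16 at -0.59 (SE 0.17) and Tmem70, which helps to build ATP synthase, at -0.36 (SE 0.12). With the form of the library name as covariate 0 of the 29 were called lower (6.28% of all genes), as without PBS mouse 90 (6.32%). Scaling by total counts gave 1 lower and 4 higher. With the length slope described below as covariate, 10 of the 29 log2 fold changes were negative. Genes for transcription of mitochondrial DNA and for processing and stabilising its RNA went both ways, with 15 of 34 called lower and 3 higher, beside the same shares of all genes. Ptcd3, a protein of the mitochondrial ribosome, was lower (-0.33, SE 0.07, adjusted p = 0.0151) and Ptcd1, which acts in RNA processing, was higher (0.38, SE 0.09, adjusted p = 0.0155). A further 3 of these 34 genes are named after their values were seen. All 3 were called, whereas 16 of the 34 were not. The first 2 hold the highest and the lowest log2 fold change of the list. Lrpprc and Slirp encode partners in the complex that stabilises mitochondrial mRNAs, and they differed in opposite directions, with Lrpprc at 0.44 (SE 0.11, adjusted p = 0.0163) and Slirp at -0.62 (SE 0.18, adjusted p = 0.0203). Tfam, which packages mitochondrial DNA and activates its transcription, was at -0.34 (SE 0.11, adjusted p = 0.0269).

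Of 18 genes commonly used to gauge the amount of mitochondria, 2 were called lower and 2 higher, with a median of -0.13, beside 16.1% of all genes called lower and 15.5% higher. The import channel gene Timm23 was lower (-0.45, SE 0.13, adjusted p = 0.0229) and the outer-membrane import pore gene Tomm40 was higher (0.18, SE 0.06, adjusted p = 0.0247). Of 10 regulators of mitochondrial biogenesis, 0 were called lower and 2 higher, a share near that of all genes called higher. These were the coactivators Pprc1 (0.79, SE 0.22, adjusted p = 0.0200) and Ppargc1b (0.72, SE 0.21, adjusted p = 0.0216).

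**Figure D4:**
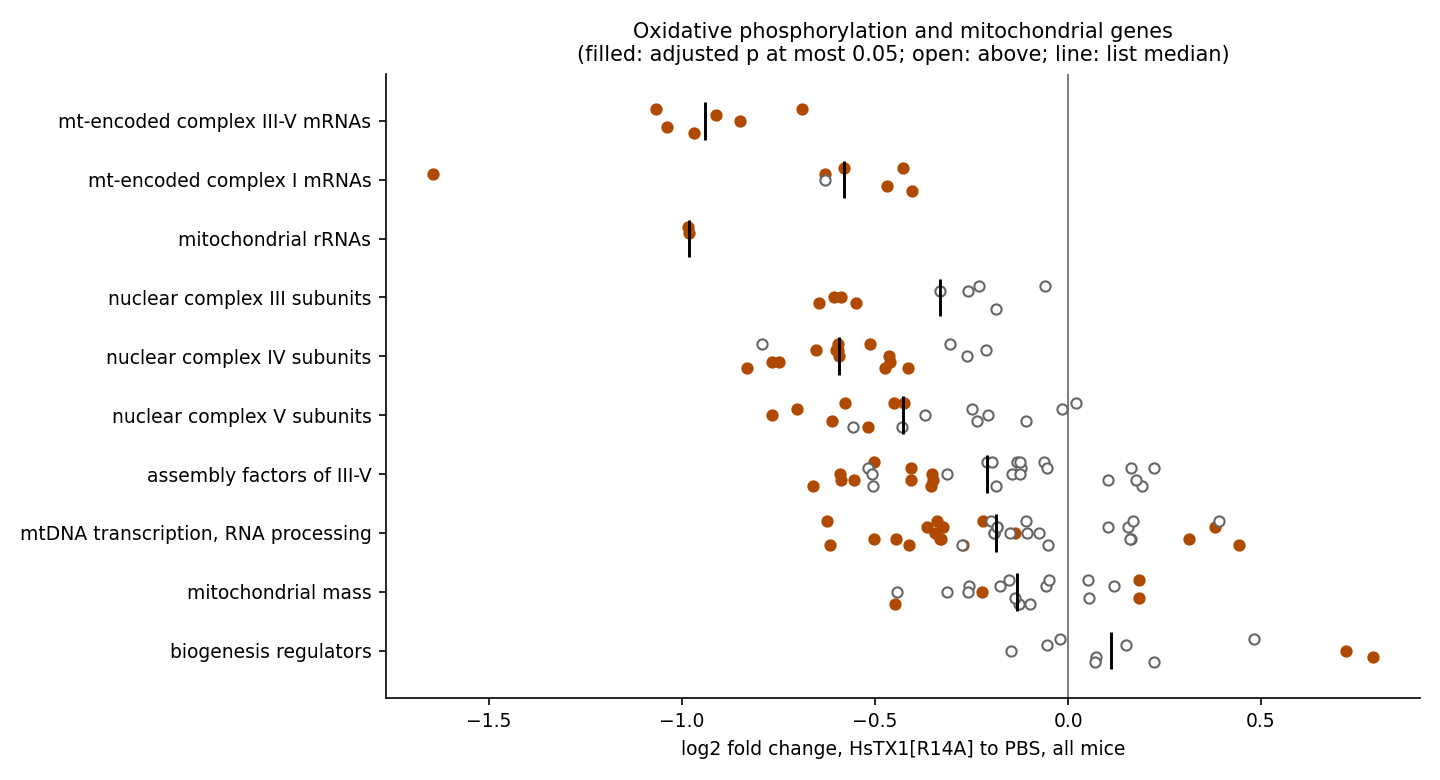
Log2 fold change of HsTX1[R14A] to PBS over all mice for each gene of 10 mitochondrial lists, filled where the adjusted p is at most 0.05, with a line at each list's median. The 6 complex III-V mRNAs have a median of -0.94, the nuclear subunits of complexes III, IV and V have -0.33, -0.59 and -0.43, and the regulators of mitochondrial biogenesis have 0.11.

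Markers of brain cell types are given against the same shares of all genes (16.1% called lower and 15.5% higher), and their part in the differences of the 6 mRNAs was not tested. Of 12 neuronal markers 2 were called higher and 0 lower, with Nefm at 0.61 (SE 0.18) and Syt1 at 0.31 (SE 0.11), and their summed level was 6180 to 9105 CPM in PBS mice and 7389 to 10503 in HsTX1[R14A] mice. Called lower were 3 of 8 oligodendrocyte markers, 4 of 8 astrocyte markers and 4 of 10 microglia markers, with Mobp at -0.67 (SE 0.12), S100b at -0.72 (SE 0.17) and P2ry12 at -0.65 (SE 0.14). The oligodendrocyte sum ran from 4485 to 6824 CPM in PBS mice and from 3380 to 5020 in HsTX1[R14A] mice. The astrocyte sum ran from 3331 to 4986 and from 3339 to 5038, and the microglia sum had a median of 490 and of 401 CPM. Of 8 endothelial markers 1 was higher (Flt1, 0.64, SE 0.18), with sums of 96.1 to 152 and 97.5 to 172 CPM. Of 7 ependymal markers 3 were lower (Ccdc153, Dynlrb2 and Calml4), with sums of 14.4 to 48.5 and 12.6 to 23.7 CPM. Of the 8 choroid plexus markers 0 were called, and their sum varied from 69.0 to 1129 CPM in PBS mice and from 58.1 to 838 in HsTX1[R14A] mice. Of the 5 red cell genes 0 were called, with sums of 5.82 to 157 and 15.1 to 87.6 CPM. Of 6 genes of other organs, Apoa1 was lower and Nphs1 higher, with median sums of 27.2 and 20.3 CPM, and each of these calls was lost in 6 of the 21 fits with 1 mouse left out.

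Outside the mitochondrial genome, the genes whose log2 CPM followed the mean of the 6 mRNAs most closely over the 21 mice were, among 13287 genes compared, Rpf1 (Pearson's r 0.96), a factor of ribosome assembly, and BC002059 (0.96). The 10 most alike also held Krcc1, Tmem243, the mitochondrial enzyme gene Clybl, the histone gene Hist1h2bc, E130114P18Rik and 3 nuclear copies (Gm28661, Gm28437 and the mt-Nd3 copy Gm28438), all with r from 0.95 to 0.96. The most opposite were Elp2, a subunit of the Elongator complex, and the cap methyltransferase gene Cmtr1, both at -0.96, followed by Dgcr2, the peroxisomal import receptor gene Pex5 and Wars. Such values were common, with 158 genes at r of at least 0.9 and 179 at -0.9 or below, and all points share library and treatment.

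The naming of the libraries moved with the levels of the 6 mRNAs. The PBS mice with SAMP in the library name, 102 and 104, had mt-Co1 at 24787 and 30118 CPM, while the 10 PBS mice with SAMP8 ran from 26582 over a median of 47688 to 74201. Among HsTX1[R14A] mice the 4 with SAMP ran from 19014 to 31417 CPM and the 5 with SAMP8 from 19656 to 39180. Within the 15 SAMP8 libraries the log2 fold changes of the 6 mRNAs were -1.23 to -0.76, with unadjusted p under 0.05 for all 6 and adjusted p from 0.0563 to 0.0746 (edgeR). Within the 6 SAMP libraries, 2 against 4 mice, they were -0.30 to -0.03 with adjusted p from 0.855 to 0.983. Whether the difference between treatments itself differs between the name forms was not tested. With the name form as a covariate over all 21 mice, 5 of the 6 were called (-0.96 to -0.57), and mt-Atp8 was not (adjusted p = 0.0714).

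The libraries also differed in how gene level depended on transcript length. The slope of each library's log2 CPM, relative to the mean of the mice, on log2 transcript length averaged -0.08 ± 0.16 (SD) over the 12 PBS libraries and 0.10 ± 0.12 (SD) over the 9 HsTX1[R14A] libraries (exact permutation within sex, two-sided, p = 0.00504). Its Pearson's r with the mean of the 6 mRNAs over the 21 mice was -0.84 (Spearman's rho -0.86), and r was -0.80 without mice 103 and 90, the farthest from the median slope. Within the 12 PBS mice it was -0.78, within the 9 HsTX1[R14A] mice -0.73, within the 15 SAMP8 libraries -0.85 and within the 6 SAMP libraries -0.47. With the slope as a covariate none of 16303 genes was called by edgeR (1865 had an unadjusted p under 0.05). The 6 mRNAs then had log2 fold changes of -0.57 to -0.25, with 4 of the 6 at an unadjusted p under 0.05, and the median of the 42 nuclear subunits was 0.02, with 16 negative. After the dependence of each library on length and GC was subtracted, 4 of the 6 were called (mt-Co1, mt-Co2, mt-Co3 and mt-Atp6, -0.54 to -0.46), while mt-Cytb was at -0.27 (adjusted p = 0.149) and mt-Atp8 at -0.13 (adjusted p = 0.501). The part of the slope in the difference between treatments was not tested further.

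**Figure D5:**
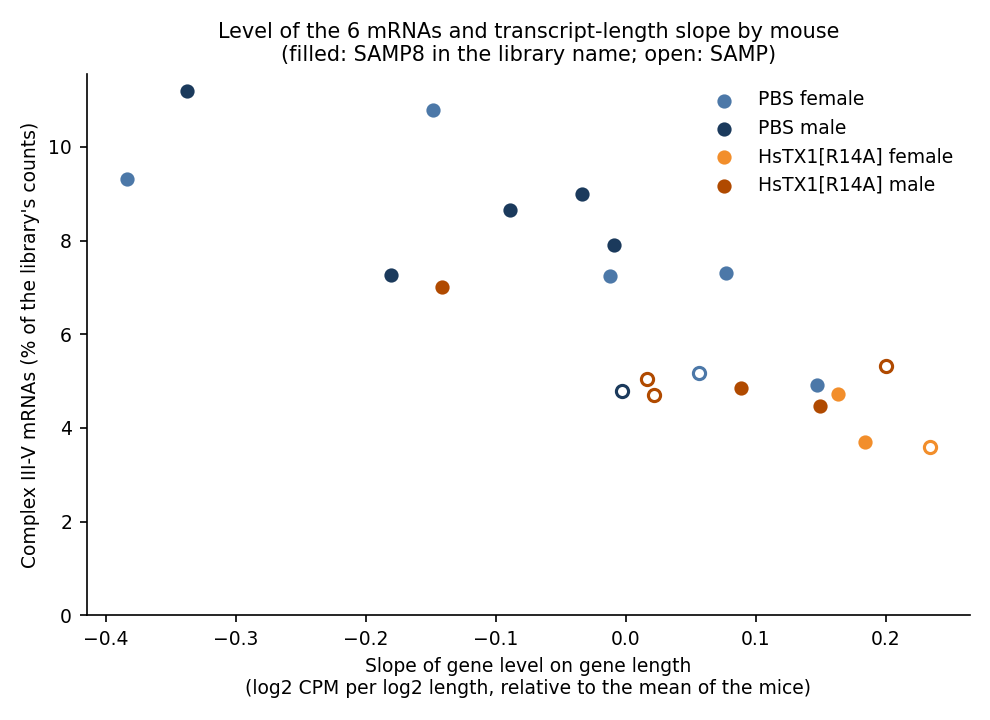
Share of each library's counts in the 6 complex III-V mRNAs (percent, from 0) against the library's slope of log2 CPM on log2 transcript length, 1 point for each mouse, filled for library names with SAMP8 and open for SAMP. Mice with more negative slopes, such as PBS mice 90 and 103, have larger shares, and the HsTX1[R14A] mice other than 93 have slopes above 0.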

How the data were processed

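Whole-brain RNA of 21 SAMP8 mice was sequenced, with 1 library for each mouse. For 16318 genes the authors deposited estimated counts without normalization, which Salmon gave after alignment to GRCm38 by STAR. The sample labels name a SMARTER mRNA-Seq kit and the study's methods an MGI directional kit. Columns of the deposited table with the authors' log2 fold change, p-value and FDR were not used, nor were 53 per-sample columns (37 of CPM and 16 of counts). How many reads of identical sequence were assigned to mitochondrial genes or to their nuclear copies was decided by the authors' quantification.

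Estimated counts were rounded (90.5% lay within 0.01 of a whole number). The 16303 genes left by filterByExpr were tested, after TMM scaling, with edgeR's quasi-likelihood functions (version 4.0.16, R 4.3.3) with sex in the model, Benjamini-Hochberg adjustment over all of them and an FDR of at most 0.05. The SE is the log2 fold change divided by the square root of F. Ratios used counts plus 0.5 and an exact permutation of treatment within sex (77616 arrangements). Total counts per mouse ran from 14917174 to 47613792. Positions and sequences came from GENCODE M21 on GRCm38, and copies were searched for among the genes of the deposited table by shared 31-base words. To look for a library deposited more than 1 time, mice of a group were compared in pairs, and the mean chi-square per gene was at least 7.58, above sampling noise.

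The members and gene lists were chosen with earlier results of these data known. Named are the 6 mRNAs, the 2 genes with the smallest p of each other list (all genes of lists of up to 7 genes), and the 10 genes most and 5 most opposite in pattern, among genes averaging 1 or more in log2 CPM. Lrpprc, Slirp and Tfam were named after their values were seen. Alternatives were limma/voom 3.58.1, DESeq2 1.42.0, sva 3.50.0, other scalings, filters and covariates, the libraries of 1 name form, and 20 of the 21 mice at a time. On data simulated from these libraries for this comparison, 178 of 200 genes changed 2-fold were recovered with 10 false calls among 16295 genes. Of 200 changed 1.5-fold, 116 were recovered with 3 false calls among 16293. The number of false calls when the length slope differs between treatments was not tested.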

Additional observations from a re-analysis of the deposited data

Results flagged for a closer look

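Within the 6 HsTX1[R14A] males, mt-Co2 was 2353 CPM in mouse 93 and at most 1709 CPM in the others, a gap that takes 0.780 of the group's whole range and exceeds Dixon's 95% critical value of 0.625. Of 18 groups tested (6 mRNAs in 3 groups of 6 mice) it was the only 1 past that value, and chance alone passes about 1 group in 20. The flag holds for mt-Co2 as deposited. With its copy Gm28661 added, mouse 93 had 18331 CPM, the next male (81) 14874 and the lowest (88) 10959, and these sums were not put to Dixon's test. Mouse 93 also had the highest share of counts in the 6 mRNAs among all HsTX1[R14A] mice, 7.01%, and the most negative length slope of that group (-0.14).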

How the results depend on the processing

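All 6 mRNAs kept a negative log2 fold change in each of the alternatives run. All 6 were also called with limma/voom, DESeq2, RLE scaling, scaling by total counts, scaling without mitochondrial rows, both other filters, no sex term, sample quality weights and the nuclear copies added. Of the 6, 5 were called with the name form as covariate, 4 with 1 surrogate variable, 4 with length and GC trends removed, and 0 with the length slope as covariate, within the SAMP8 libraries alone and within the SAMP libraries alone. Genes called numbered 5144, and 2984 without the sex term, 1999 with the name form as covariate, 1104 with 1 surrogate variable, 2688 with length and GC trends removed, and 0 with the length slope as covariate, within the SAMP8 libraries (5797 had an unadjusted p under 0.05) and within the SAMP libraries (532). For these the cause was not tested. Scaling by total counts shifted the median of all genes to 0.08 and changed the split from 2526 higher and 2618 lower to 3467 and 1368, and removing length and GC trends changed it to 1639 and 1049. In females DESeq2 called 1 of the 6 and in males 4.

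With 1 mouse left out, 5 to 6 of the 6 were called, 0 in females, 0 to 4 in males, 0 for sex and 0 for the interaction, and the genes called ranged from 2289 (PBS mouse 90 left out) to 6614 (HsTX1[R14A] mouse 93 left out). The log2 ratio differences then ran from -0.21 to -0.14 for mt-Co2 to mt-Co1, from -0.18 to -0.03 for mt-Co3, from -0.24 to -0.14 for mt-Atp6, from -0.12 to 0.04 for mt-Atp8, from 0.12 to 0.17 for mt-Cytb, and from 0.08 to 0.23 for mt-Atp8 to mt-Atp6. Sign changes of other named genes are listed where the gene was called in the main fit or in the alternative. The sign changed for Uqcrh (0.0051) with the length slope and for mt-Nd4l (0.21) with length and GC trends removed. Within the SAMP libraries it changed for mt-Nd4l (0.31), mt-Nd4 (0.10), mt-Nd5 (0.072) and Elp2 (-0.018). Among marker and assembly genes, Syt1, Apoa1 and Nphs1 each lost their call in 6 of 21 fits with 1 mouse left out, and Gfap and Tmem70 each in 5. No analysis paired by mouse was possible because mouse numbers are not shared between groups. The paper states that treatment was randomized within each cage. Cages are not given in the sample labels, so they could not be used as blocks. Depth was not limiting for the 6 mRNAs, and 3 treated females limit any statement on sex.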
